A study of Homo sapiens with 8 samples.

Results

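The promoters described here are those of protein-coding genes that carried a TAZ binding peak at 72 h after doxycycline (Dox) and in no other list of the series. A peak was taken when its interval shared no base with any peak found without Dox or at 24 h or 48 h, and when its summit lay within 1 kb of a transcription start site (TSS) of any transcript of a protein-coding gene in GENCODE version 44 on hg38, chromosomes 1 to 22 and X. This rule gave 8686 peaks of the 38667 in the 72 h list (22.5%) and of the 55334 in the 4 lists together. The peaks were selected on the presence of a 72 h call and the absence of the other calls, so both are the rule and not a result.

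The chromatin came from MCF10A, an immortalized but non-transformed epithelial cell line of the human breast, transduced with a Dox-inducible TAZ-4SA, a constitutively active form of TAZ. All groups carried this transgene and grew in medium with 5% horse serum, EGF, insulin, hydrocortisone and cholera toxin. The groups were cells without Dox and cells given 0.05 µg/ml Dox for 24, 48 or 72 h. The sources used here do not say whether the transduced cells were 1 clone, nor which promoter drives the transgene beyond its response to Dox. The antibody recognizes TAZ, and no source used here says that it separates TAZ-4SA from the cell's own TAZ. Each group had 1 TAZ library and 1 IgG library, 8 in all, and 1 peak list, so no group has replicates and no value below has a test between groups. Intervals in parentheses are exact 95% binomial intervals for shares and order-statistic intervals for medians, and they cover counting error only. Binding in more cells and stronger binding per cell cannot be told apart in bulk chromatin.

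TAZ is a co-activator at the end of the Hippo kinase cascade. It has no DNA-binding domain and reaches DNA through other proteins, chiefly the TEAD factors, which often sit at distal enhancers together with AP-1. A promoter is the stretch around a TSS where RNA polymerase II and general transcription factors assemble. Many promoters of genes that are active in every cell lie in CpG islands, GC-rich sequence read by factors such as SP/KLF, ETS, NRF1, YY1, NFY and ZNF143.

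The sequence at the summit differed among these promoters, and 11 examples show the range. Each line gives the hg38 plus strand from 50 bp before to 50 bp after the summit of the strongest peak, by fold enrichment, whose window held the letters named and overlapped no annotated exon, or, for the last set, one of the strongest such peaks. Capitals mark the matched letters, on whichever strand they were read. GPC1 shows the TEAD letters CATTCC, RHBDF1 the AP-1 letters TGANTCA, SSR3 the ETS letters CCGGAAG in 2 copies, GUSB the YY1 letters AAGATGGC, C19orf44 the SP/KLF letters GGGCGG, MCM10 the CREB letters TGACGTCA and FGD3 the NFY letters AGCCAAT. The RHBDF1 window, at 23.1 fold against 22.4 for SSR3, also holds the ETS letters, left in lower case.
GPC1, chr2:240457785-240457885: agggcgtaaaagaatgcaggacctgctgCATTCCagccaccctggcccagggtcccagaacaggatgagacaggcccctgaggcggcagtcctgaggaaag
RHBDF1, chr16:72684-72784: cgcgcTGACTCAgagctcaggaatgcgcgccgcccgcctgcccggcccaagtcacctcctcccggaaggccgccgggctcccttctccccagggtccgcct
SSR3, chr3:156555261-156555361: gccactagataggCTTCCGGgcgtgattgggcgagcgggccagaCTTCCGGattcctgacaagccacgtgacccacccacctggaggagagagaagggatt
GUSB, chr7:65982221-65982321: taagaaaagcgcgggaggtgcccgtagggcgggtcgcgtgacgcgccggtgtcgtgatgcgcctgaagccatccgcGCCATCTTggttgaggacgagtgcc
C19orf44, chr19:16496247-16496347: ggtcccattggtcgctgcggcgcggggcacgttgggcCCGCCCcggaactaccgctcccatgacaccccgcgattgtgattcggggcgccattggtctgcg
MCM10, chr10:13161438-13161538: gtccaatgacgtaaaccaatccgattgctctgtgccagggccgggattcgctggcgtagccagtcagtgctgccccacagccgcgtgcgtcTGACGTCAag
FGD3, chr9:92974352-92974452: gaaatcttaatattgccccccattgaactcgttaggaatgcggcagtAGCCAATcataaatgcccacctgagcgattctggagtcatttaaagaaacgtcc

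A further set of letters was noticed only after the sequences of the strongest peaks had been read. It is ACTACA followed after 2 bases by TCCC, called the spaced element here, and TBX6, GPT2, ATPAF2 and PPP2R5B show it. ACTACA next to TCCC is part of a longer promoter element known to be bound by ZNF143 and THAP11. The windows below were picked because their spaced element is near the summit, so they say nothing of its frequency, which is given further on.
TBX6, chr16:30091936-30092036: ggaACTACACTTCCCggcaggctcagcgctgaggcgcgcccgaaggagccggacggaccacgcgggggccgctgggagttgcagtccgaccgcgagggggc
GPT2, chr16:46884185-46884285: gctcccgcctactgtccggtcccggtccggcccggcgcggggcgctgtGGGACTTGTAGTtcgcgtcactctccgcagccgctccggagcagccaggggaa
ATPAF2, chr17:18039228-18039328: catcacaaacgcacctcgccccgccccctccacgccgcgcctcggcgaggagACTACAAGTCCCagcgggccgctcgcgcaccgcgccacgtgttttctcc
PPP2R5B, chr11:64924572-64924672: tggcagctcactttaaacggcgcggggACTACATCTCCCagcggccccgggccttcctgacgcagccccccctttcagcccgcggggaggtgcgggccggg

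The 72 h-alone peaks made up most of the promoter peaks at 72 h by number. Of 10850 peaks at 72 h within 1 kb of a protein-coding TSS, 8686 were found in no other list (80.1%, 79.3 to 80.8). Over the whole 72 h list, 26252 of 38667 peaks overlapped no other list, so the lack of another call was common at 72 h in general. Among the promoter peaks another 1074 overlapped a peak without Dox alone, 839 overlapped a 24 h or 48 h peak and none without Dox, and 251 overlapped both. Of the 19970 protein-coding genes, 8897 had a 72 h-alone peak within 1 kb of a TSS (44.6%), and 10699 had any 72 h peak there (53.6%). These shares are the background for the gene lists below. The remaining 9271 genes had no promoter peak at 72 h.

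The rule is about peaks and not about genes. Of the 8897 genes, 8273 (93.0%) had no peak of an earlier list within 1 kb of any of their TSSs, and 624 (7.01%) had such a peak at a place that the 72 h-alone interval did not cover. In 286 of these genes it was a peak without Dox, in 110 a peak at 24 h and in 419 a peak at 48 h, and a gene can count in more than 1 list. The 93.0% is largely set in advance, because the rule drops overlapping peaks and the other lists held few promoter peaks. They held 1405 without Dox, 276 at 24 h and 1042 at 48 h, for 19970 protein-coding genes. Few intervals missed an overlap narrowly. A peak without Dox lay within 1000 bp of the interval of 43 of the 8686 peaks, a 24 h peak within 1000 bp of 9 and a 48 h peak within 1000 bp of 75. Within 10000 bp a 48 h peak was found for 1100 (12.7%).

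These peaks were on the weak side for the 72 h list. Fold enrichment is the authors' value of the ChIP signal at the summit over its local background. Its median over the 8686 peaks was 5.88 (5.80 to 5.93), with 10% of peaks below 3.74, 10% above 10.7 and a range from 2.37 to 36.7. The median summit carried 29 fragments on a background of 4.14, both solved from the fold enrichment and p-value of the peak, and the median width was 906 bp. All peaks of the 72 h list together had a median fold enrichment of 7.17. Promoter peaks shared with the list without Dox had a median of 8.73, those shared with 24 h or 48 h had 12.7, and those shared with both had 18.4. The 13508 peaks found at 72 h alone and over 3 kb from every TSS had a median of 6.19 (6.14 to 6.24) and a width of 634 bp. Among the promoter classes the 72 h-alone peaks thus had the lowest median, and they were wider than distal peaks found at 72 h alone. The classes are set by calls in the other lists, where weak sites are missed most easily. The order of the medians can therefore follow in part from the rule.

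**Figure D1:**
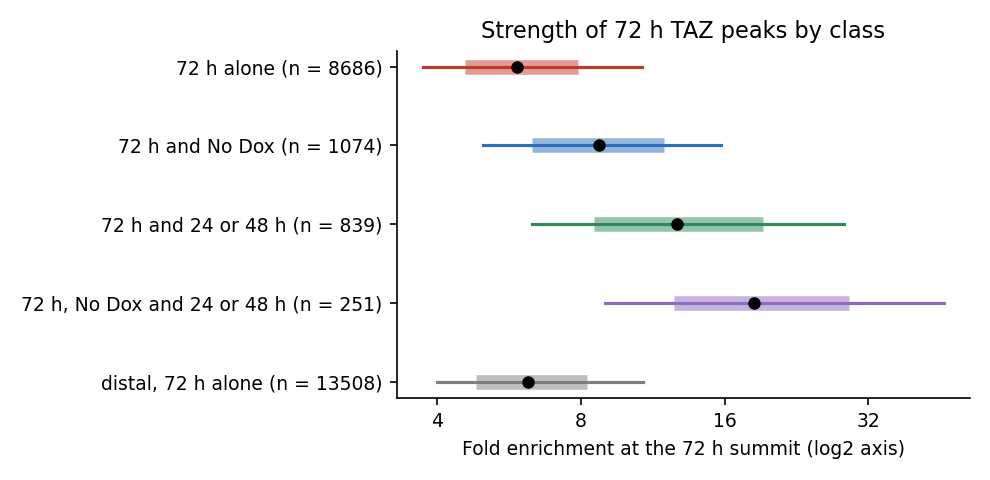
Fold enrichment at the 72 h summit on a log2 axis for the 4 classes of promoter peak and for distal 72 h-alone peaks. Points are medians, thick bars span the 25th to 75th percentile and thin lines the 10th to 90th. The 72 h-alone promoter peaks have the lowest median, 5.88, and the class shared with all kinds of lists the highest, 18.4. The classes are set by calls in the other lists, so this order can follow in part from the rule.

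The absence of a call depends in part on the depth of the other lists. Peaks that have no call in a list have no value there, so each 72 h fold enrichment was set on the lowest background of the other list and held against that list's lowest p-value. On this reckoning 85.2% of the peaks (84.4 to 85.9) would have been called in the list without Dox had the fold enrichment there been the same, 82.8% at 24 h (82.0 to 83.6) and 94.7% at 48 h (94.2 to 95.2). On the lowest background the smallest fold enrichment that could be listed was 4.01 without Dox, 4.14 at 24 h and 3.38 at 48 h. On the median background of each list's promoter peaks it was 3.48, 3.89 and 2.92, and the shares were 94.1%, 87.5% and 98.8%. Whether equal binding at the weakest peaks would have been listed thus depends on the local background. The 5 weakest lay at POLA2, SCRN2, TASP1, CDKL3 and KIF26B, between 2.37 and 2.50.

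Within the 1 kb that the rule allows, most summits lay close to a start site. The median distance to the nearest protein-coding TSS was 78 bp (75 to 82), 39.0% of summits lay within 50 bp, 56.3% within 100 bp and 77.8% within 250 bp. The median signed position was 12 bp upstream, and 58.1% lay upstream of the TSS against 41.0% downstream. In 88.6% the interval covered the TSS. The class shared with the list without Dox lay closer, at a median of 46 bp (42 to 52) with 69.8% within 100 bp. The class shared with 24 h or 48 h was spread more widely, at 218 bp (194 to 255) with 28.7% within 100 bp. At the 1 kb limit the last peaks inside were those of H2AZ1 at 5.31 fold, NRTN at 4.05 and FAM174B at 3.71, and the nearest outside, at 1002 bp, were those of RAB35 at 5.85, SNAP47 at 7.19 and HPCAL1 at 6.24.

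**Figure D2:**
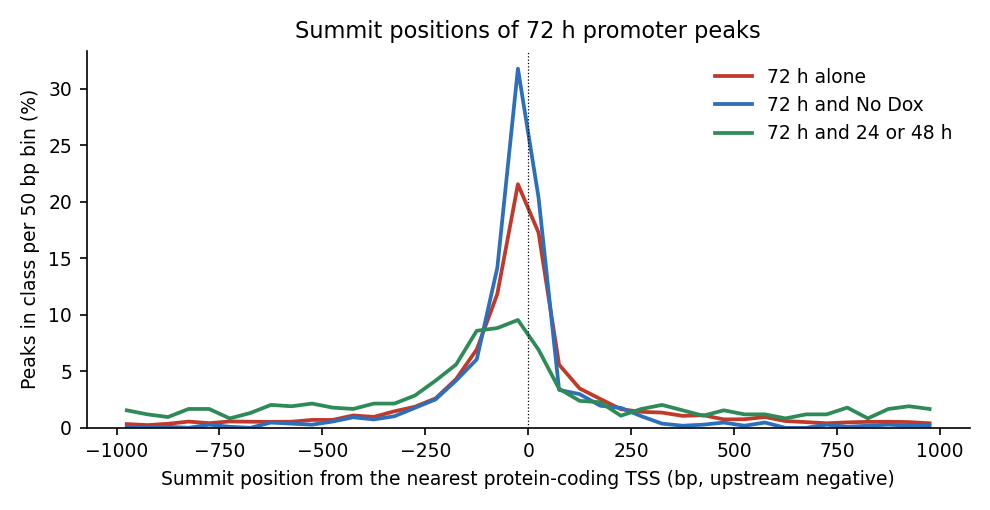
Share of peaks (%) in 50 bp bins of summit position relative to the nearest protein-coding TSS, upstream negative, for 3 classes of 72 h promoter peak. The 72 h-alone line peaks just upstream of the TSS, with 56.3% of summits within 100 bp, between the class shared with no Dox (69.8%) and the flatter class shared with 24 h or 48 h (28.7%).

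The strongest 72 h-alone promoters belonged to genes of many functions. UQCC4, an assembly factor of respiratory complex III, had the highest fold enrichment, 36.7, from 166 fragments on a background of 3.55, with the summit 69 bp upstream of the TSS. PIGU, a subunit of the enzyme that attaches GPI anchors, followed at 33.9, SNAPC3, a subunit of the complex that starts snRNA transcription, at 33.2, and TCEA2, a transcript elongation factor, at 33.0. MIEN1 stood at 31.6, the DNA glycosylase NTHL1 at 31.3, the heparan sulfate proteoglycan GPC1 at 31.3, and the T-box factor TBX6 at 31.2. TSNAXIP1 had 29.8, the replication fork helicase SMARCAL1 29.1, IFRD2 29.0 and TSN, the nucleic acid-binding protein translin, 29.0. The last 8 of the strongest 20 were C19orf44 at 28.3, the autophagy receptor CALCOCO1 at 28.2, ZNF133 at 27.6, the anion exchanger SLC4A2 at 27.6, the sphingolipid regulator ORMDL3 at 27.0, the kinase WNK1 at 26.6, the transporter ABCA4 at 26.6 and VPS50, a part of an endosomal recycling complex, at 26.3. In all but ABCA4, at 819 bp, and MIEN1, at 313 bp, the summit lay within 143 bp of the TSS. IFRD2 had the most fragments of all, 251 on a background of 7.69.

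Some of these summits lay near genes of both strands. Of the 8686 peaks, 1029 (11.8%, 11.2 to 12.5) had protein-coding TSSs on both strands within 1 kb, against 20.4% (18.0 to 22.9) of the class shared with no Dox and 4.05% of the class shared with 24 h or 48 h. Their median fold enrichment was 6.40 against 5.81 for the others. The strongest were at NTHL1 with TSC2, TSNAXIP1 with RANBP10, C19orf44 with CALR3, SLC4A2 with CDK5 and ORMDL3 with LRRC3C. A peak near several genes counts for each of them in the gene counts. Whether the genes of a pair are divergent, with the summit between their TSSs, was not examined.

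Most genes had a single such peak. Of the 8897 genes 7871 had 1, 907 had 2 and 16 had 4. The most was 5, at DENND2B and at DST, which encodes a cytoskeletal linker of hemidesmosomes and has many annotated starts. The widest peaks spanned several kb, with 7253 bp at TNRC18, 6045 bp at RCC1, a regulator of nuclear transport, 4769 bp at the kinase NUAK2, 4630 bp at the transcription factor TFAP2A and 4612 bp at TRIM8.

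The summits lay in GC-rich sequence of the CpG-island kind. Within 100 bp of the summit the median GC content was 67.7%, and the median ratio of observed to expected CpG was 0.836 (0.830 to 0.841). In 85.9% of windows the GC content was at least 55%. Windows 1 kb to each side of the same summits had a median GC content of 48.3%. The class shared with no Dox had 69.2%, the class shared with 24 h or 48 h had 51.2% and the distal 72 h-alone peaks had 46.8%. The TSSs of all protein-coding genes had 66.7%, those of genes with a 72 h-alone peak 69.7% and those of genes without a 72 h promoter peak 61.2%. In GC content these promoters were thus close to promoters at large and far from distal peaks of the same time point.

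SP/KLF letters were frequent, and TEAD and AP-1 letters were rarer than at distal peaks of the same time. The SP/KLF letters GGGCGG stood in 57.2% of the 8686 windows (56.2 to 58.3), against 53.7% of windows at all protein-coding TSSs, 22.8% of the class shared with 24 h or 48 h and 7.45% of distal 72 h-alone peaks. The TEAD letters CATTCC stood in 13.2% (12.5 to 13.9). The share was 9.95% in the windows 1 kb to each side, 6.48% at all protein-coding TSSs, 9.40% (7.72 to 11.3) in the class shared with no Dox, 46.8% (43.4 to 50.3) in the class shared with 24 h or 48 h and 39.3% (38.5 to 40.2) at distal 72 h-alone peaks. The AP-1 letters TGANTCA stood in 5.74% (5.26 to 6.26), against 4.80% in the outer windows, 20.6% in the class shared with 24 h or 48 h and 26.8% at distal peaks. TEAD and AP-1 letters together stood in 1.29% of the windows and in 8.32% of distal ones.

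The ETS letters CCGGAAG separated the promoter classes. They stood in 13% (12.3 to 13.7) of the 72 h-alone windows and in 30.5% (27.8 to 33.4) of the windows shared with no Dox, although both classes lay at similar GC content. At all protein-coding TSSs the share was 11.2%, in the outer windows 1.23%, in the class shared with 24 h or 48 h 5.24% and at distal peaks 1.28%. Other letters were rarer. YY1 letters stood in 3.59%, NRF1 letters GCATGCGC in 2.67%, NFY letters in 4.62%, CREB letters in 2.07%, E-box letters CACGTG in 7.56%, RUNX letters TGTGGT in 7.66%, STAT letters TTCNNNGAA in 4.34%, the ZNF143 letters TCCCAGNAT in 1.85% and TATAAA in 2.34%. None of the 13 motifs stood in 18.6% of windows. All motifs were searched on both strands, and a match is a string of letters and not a measured site.

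**Figure D3:**
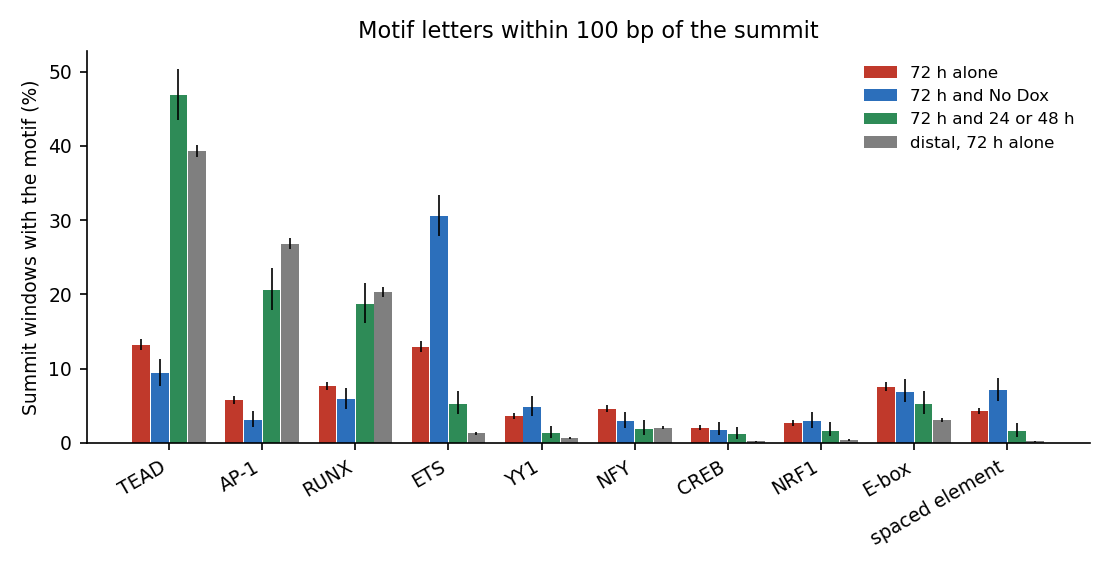
Share of summit windows, 100 bp to each side of the summit (%), that hold the letters of each motif, in 3 classes of 72 h promoter peak and in distal 72 h-alone peaks, with exact 95% binomial intervals. TEAD reaches 13.2% at 72 h-alone promoters and 46.8% at promoters shared with 24 h or 48 h, and ETS 13% against 30.5% at promoters shared with no Dox.

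The set mixed main and alternative start sites. Of the 8686 peaks, 6961 (80.1%) lay within 1 kb of the canonical TSS of a gene and 1725 (19.9%, 19.0 to 20.7) only near another annotated start. Near canonical starts the TEAD letters stood in 9.57% (8.89 to 10.3), the AP-1 letters in 2.83%, the RUNX letters in 5.79% and the ETS letters in 15.0%. Near other starts alone the shares were 27.9% (25.8 to 30.1) for TEAD, 17.5% for AP-1, 15.2% for RUNX and 4.52% for ETS, and the median GC content was 57.2% against 69.2%. The fold enrichments were close, with medians of 5.93 and 5.66. In the class shared with 24 h or 48 h 60.5% of peaks lay near another start alone, and in the class shared with no Dox 7.64%. At canonical starts the TEAD share of 72 h-alone peaks, 9.57%, was within the interval of the class shared with no Dox, 8.47% (6.81 to 10.4), and under the 39.6% (34.3 to 45.1) of the class shared with 24 h or 48 h. This split was added after the data were seen.

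Distance from the TSS gave the same contrast. Within 100 bp of a TSS the TEAD letters stood in 8.80% of the windows, farther out up to 500 bp in 15.0% and beyond 500 bp in 31.2%, and the AP-1 letters in 3.89%, 6.33% and 13.9%. The ETS letters went the other way, from 18.5% to 6.78% and 2.86%, and the YY1 letters from 5.63% to 1.21% and 0.220%. GC content was 69.2%, 67.2% and 56.7%. The peaks with most TEAD letters were CYP4F11 with 10 copies of CATTCC in a window of repeated sequence, GSG1 with 4, and EVI5L, RNF144B and the repair gene XRCC2 with 3 each. GSG1, RNF144B and XRCC2 lay 793, 818 and 815 bp upstream of the TSS.

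Stronger peaks held the letters of several motifs more often. The 8686 peaks were split into quintiles by fold enrichment, from a median of 3.74 in the weakest to 10.7 in the strongest. TEAD letters went from 8.52% of windows in the weakest quintile through 11.2%, 11.5% and 14.6% to 20.2% in the strongest. ETS letters went from 8.46% to 16.1% and YY1 letters from 1.78% to 5.53%. SP/KLF letters stayed between 55.6% and 58.7%, AP-1 letters between 4.72% and 6.85%, and GC content between 66.7% and 68.2%. The share of summits within 100 bp of a TSS was 51.1% in the weakest quintile and 62.3% in the strongest. Among the 200 strongest, 63 (31.5%, 25.1 to 38.4) held the TEAD letters against 12.8% of the rest.

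The spaced element had the largest ratio between strong and weak peaks among the motifs counted. It stood in 0.173% of the windows in the weakest quintile, then in 0.748%, 1.27% and 3.97%, and in 15.4% (13.8 to 17.2) of the strongest quintile. Of the 20 strongest peaks 11 held it, at SNAPC3, TCEA2, NTHL1, TBX6, TSNAXIP1, SMARCAL1, C19orf44, ZNF133, ORMDL3, WNK1 and VPS50. Of the 200 strongest 67 held it (33.5%, 27.0 to 40.5), against 3.63% of the rest. The element was found by reading these strong peaks. Its share among them, its shares by quintile and the fold enrichment of the windows that hold it thus partly restate how it was found. So do its share over all 72 h-alone windows and its count among genes with a 72 h-alone peak, given below. Over all 8686 windows it stood in 375 (4.32%, 3.90 to 4.77), against 10 of 17372 outer windows (0.0576%), 29 of 13508 distal 72 h-alone peaks (0.215%) and 317 of 19970 protein-coding TSSs (1.59%). The median fold enrichment of the 375 was 11.0 (10.4 to 11.6), against 5.75 (5.69 to 5.82) for the other 8311. In 49.3% of them the element lay within 25 bp of the summit, and 40.5% of the 1147 windows with TEAD letters had those within 25 bp.

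The element was not restricted to 72 h-alone promoters. In the class shared with no Dox it stood in 7.08% of windows (5.62 to 8.78), with a median fold enrichment of 15.0 against 8.45 for windows without it, and in the class shared with 24 h or 48 h in 1.55% (0.828 to 2.64). Seen from the genes, 317 had the element within 100 bp of the canonical TSS. Of these, 228 (71.9%, 66.6 to 76.8) had a 72 h-alone peak, 53 (16.7%) had another 72 h promoter peak alone and 36 (11.4%) had none. The same count for the ETS letters was 1339 of 2246 genes (59.6%) with a 72 h-alone peak, for the YY1 letters 481 of 753 (63.9%), for the SP/KLF letters 5899 of 10717 (55%), for the TEAD letters 463 of 1295 (35.8%) and for TATAAA 254 of 1333 (19.1%), beside 44.6% of all protein-coding genes. The 71.9% of the spaced element partly restates how that element was found.

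**Figure D4:**
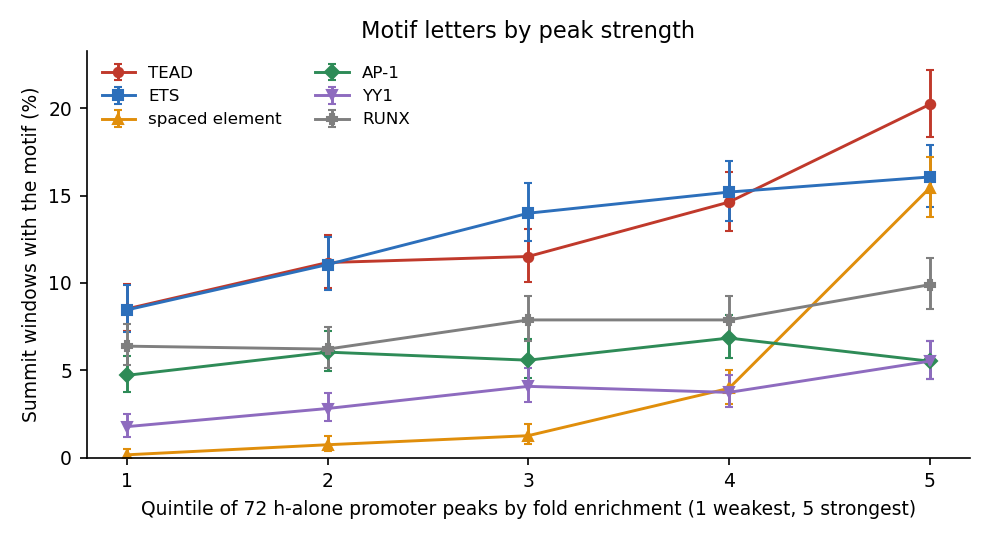
Share of summit windows, 100 bp to each side of the summit (%), with the letters of 6 motifs in each quintile of the 72 h-alone promoter peaks, ordered by fold enrichment, with exact 95% binomial intervals. The spaced element goes from 0.173% in the weakest quintile to 15.4% in the strongest and TEAD from 8.52% to 20.2%, while AP-1 stays between 4.72% and 6.85%.

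Genes of basic cell machinery were covered above the background of 44.6%. Of the 60 cell cycle and DNA replication genes, 50 (83.3%, 71.5 to 91.7) had a 72 h-alone promoter peak, led by the replication factor MCM10 at 16.2 fold, the spindle checkpoint kinase BUB1B at 15.5, the replication factor CDC45 at 14.8 and the mitotic kinase AURKA at 13.8. Of the 49 DNA repair genes 38 had one (77.6%), led by XRCC2 at 13.9, ERCC1 at 12.5, FANCC at 12 and ERCC5 at 11.1. Their median fold enrichments, 5.93 and 5.71, lay beside 6.11 over all 8897 genes. Over the 30 lists these medians ran from 3.79 for blood cell markers to 7.72 for translation initiation factors. Genes were counted in a list when any of their TSSs lay within 1 kb of a 72 h-alone summit.

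Transcription and translation genes had similar shares. A 72 h-alone peak was found at 47 of 66 RNA polymerase II and Mediator genes (71.2%), with TAF8 at 16.1, at 45 of 66 chromatin modifiers (68.2%), with the histone demethylase KDM1A at 13.1, and at 32 of 52 spliceosome genes (61.5%), with SF3B2 at 10.8. It was found at 31 of 46 translation initiation factors (67.4%), with EIF3M at 15.4, at 23 of 35 aminoacyl-tRNA synthetases (65.7%), with GARS1 at 14.0, at 53 of 86 cytosolic ribosomal protein genes (61.6%), with RPL36 at 21.9, and at 49 of 78 mitochondrial ribosomal protein genes (62.8%), with MRPS14 at 15.7. Of the last list another 22 had a 72 h promoter peak shared with an earlier list, so that 91.0% had any, beside 53.6% of all genes. Amino acid synthesis genes had 18 of 25 (72.0%), with the alanine transaminase GPT2 at 24.1, whose summit sequence is printed above, followed by ASS1 at 9.56, CTH at 8.89 and GOT1 at 7.99.

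Respiration, protein turnover and trafficking genes followed. Of 83 respiratory chain genes 57 had a 72 h-alone peak (68.7%), with the complex III subunit UQCR10 at 25.6, ATP5MF at 17.0 and NDUFA4 at 15.0. Of 39 proteasome subunits 27 had one (69.2%), with PSMD2 at 14.7, PSMD3 at 12.7, PSMB5 at 10.6 and PSMC4 at 10.1. Of 41 autophagy and V-ATPase genes 28 had one (68.3%), with ATG14 at 17.7. Of 63 RAB GTPases 39 had one (61.9%), with RAB34 at 16.7, RAB27A at 16, RAB7A at 15.8 and RAB1A at 15.2. ZNF zinc finger genes were nearer the background, at 260 of 508 (51.2%, 46.7 to 55.6), though ZNF133 at 27.6 and ZNF554 at 20.2 were among the strong ones.

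Hippo pathway genes were covered at 25 of 40 (62.5%, 45.8 to 77.3). YAP1, the paralog of TAZ, had 17.7 fold, the scaffold STRN 16.9, the TEAD cofactor VGLL3 11.4, the kinase LATS1 11.1 and WWTR1, the gene of TAZ itself, 10.8. The kinase STK38L had 9.85 and the adaptor SAV1 9.09. Another 10 had a 72 h promoter peak shared with an earlier list and none of the 72 h-alone kind, among them TEAD1 at 88.6, PTPN14 at 63.2, AMOTL2 at 61.3 and TEAD4 at 48.0. Of the 25 genes 4 had an earlier promoter peak within 1 kb of a TSS as well, and their shared 72 h peaks had 68.4 fold at AJUBA, 34.8 at VGLL4, 18.6 at FRMD6 and 11.9 at WWTR1. AMOT, AMOTL1, MAP4K2, TEAD2 and VGLL1 had no promoter peak at 72 h. Any 72 h promoter peak was thus found at 87.5% of the Hippo genes, beside 53.6% of all genes.

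Known YAP/TAZ target genes followed the same division. Of the 22 genes of the target signature 12 (54.5%, 32.2 to 75.6) had a 72 h-alone promoter peak, near the background, and all 12 fold enrichments lay between 4.13 and 8.81. They were ASAP1 at 8.81, NUAK2 at 7.58, MYOF at 7.43, AXL at 6.95, TGFB2 at 6.68, FJX1 at 6.65, DOCK5 at 6.54, RBMS3 at 6.37, F3 at 6.32, NT5E at 5.93, CCDC80 at 5.11 and IGFBP3 at 4.13. In 2 of the 12, ASAP1 and AXL, an earlier list had a peak elsewhere within 1 kb of a TSS, and the shared 72 h promoter peak of AXL had 65.1 fold. All 12 had a 24 h or 48 h peak within 100 kb, beside 65.6% of all genes with a 72 h-alone peak and 57.9% of protein-coding genes. In contrast CCN1 at 38.7, CCN2 at 37.9, ANKRD1 at 31.0, AMOTL2, PTPN14 and LATS2 at 36.7 and CRIM1 at 12.2 had promoter peaks shared with earlier lists. ARHGEF17, FOXF2 and GADD45A had none at 72 h. Any 72 h promoter peak was thus found at 86.4% of the signature, beside 53.6% of all genes.

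NF-kB and TNF genes lay above the background of 44.6%, while the interval of the AP-1 family spanned it. Of 16 AP-1 family genes 9 had a 72 h-alone peak (56.2%, 29.9 to 80.2), with MAFF at 9.69, ATF2 at 9.01, FOS at 8.57, FOSL1 at 8.23, FOSB at 5.70, JUND at 5.23, BATF3 at 5.15, MAFK at 4.09 and ATF7 at 3.93. MAFK and JUND also had shared 72 h promoter peaks, of 25.8 and 9.05 fold. ATF3 at 9.73 and FOSL2 at 9.42 had shared peaks alone, and JUN, JUNB, MAFG, BATF and BATF2 had none. Of 33 NF-kB and TNF genes 23 had a 72 h-alone peak (69.7%, 51.3 to 84.4). They were led by the adaptor TRAF2 at 16.3, the inhibitors NFKBIA at 15.9 and NFKBIB at 14.8 and the chemokine CCL2 at 11.6. Complement genes were below the background, at 6 of 28 (21.4%, 8.30 to 41.0), with C1S at 10.5, CD59 at 10.3, C5 at 7.62 and C5AR1 at 6.32.

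EMT genes also lay above the background of 44.6%, while junction and mammary genes lay nearer to it. Of 30 EMT and mesenchymal genes 20 (66.7%, 47.2 to 82.7) had a 72 h-alone peak, with the collagen cross-linking enzyme LOX at 12.9, the repressor ZEB2 at 8.91, ITGAV at 8.74 and LOXL2 at 8.27. Of 29 epithelial junction genes 15 had one (51.7%), with P-cadherin, CDH3, at 19.5, plakoglobin, JUP, at 10.9, PKP2 at 8.46 and CLDN4 at 7.99. Basal mammary markers had 8 of 18 (44.4%), with KRT17 at 15.2, TRIM29 at 11.5, DST at 8.84 and LAMA3 at 6.99. ITGA6 had one at 4.27, while KRT5, KRT14 and TP63 had no promoter peak at 72 h. Luminal markers had 8 of 17 (47.1%), with KRT8 and KRT18 sharing a peak at 8.17, FOXA1 at 6.98 and GATA3 at 5.26, while KRT19 and ESR1 had none. A shared 72 h promoter peak alone was found at another 4 basal markers and at 0 luminal markers. Any 72 h promoter peak was thus found at 66.7% of the basal and 47.1% of the luminal markers. A promoter peak does not measure expression, so these counts do not type the cells.

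Genes of other tissues were mostly uncovered. The 72 h-alone share was 4 of 16 neuron markers (25%), with GAD1 at 7.59, 2 of 18 blood cell markers (11.1%), CD34 at 4.25 and CD14 at 3.33, 1 of 15 muscle markers, TNNT1 at 4, and 1 of 16 liver markers, CYP2E1 at 5.05. Of 415 olfactory receptor genes 3 had one (0.723%, 0.149 to 2.10), OR10S1 at 7.65, OR9A4 at 6.99 and OR1F1 at 6.81. Replication-dependent histone genes had 27 of 69 (39.1%), with H2BC26 at 9.99 and H4C8 at 9.92. Histone, ribosomal protein and zinc finger genes have close copies, and how reads with several matches were treated is not given in the sources used here.

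**Figure D5:**
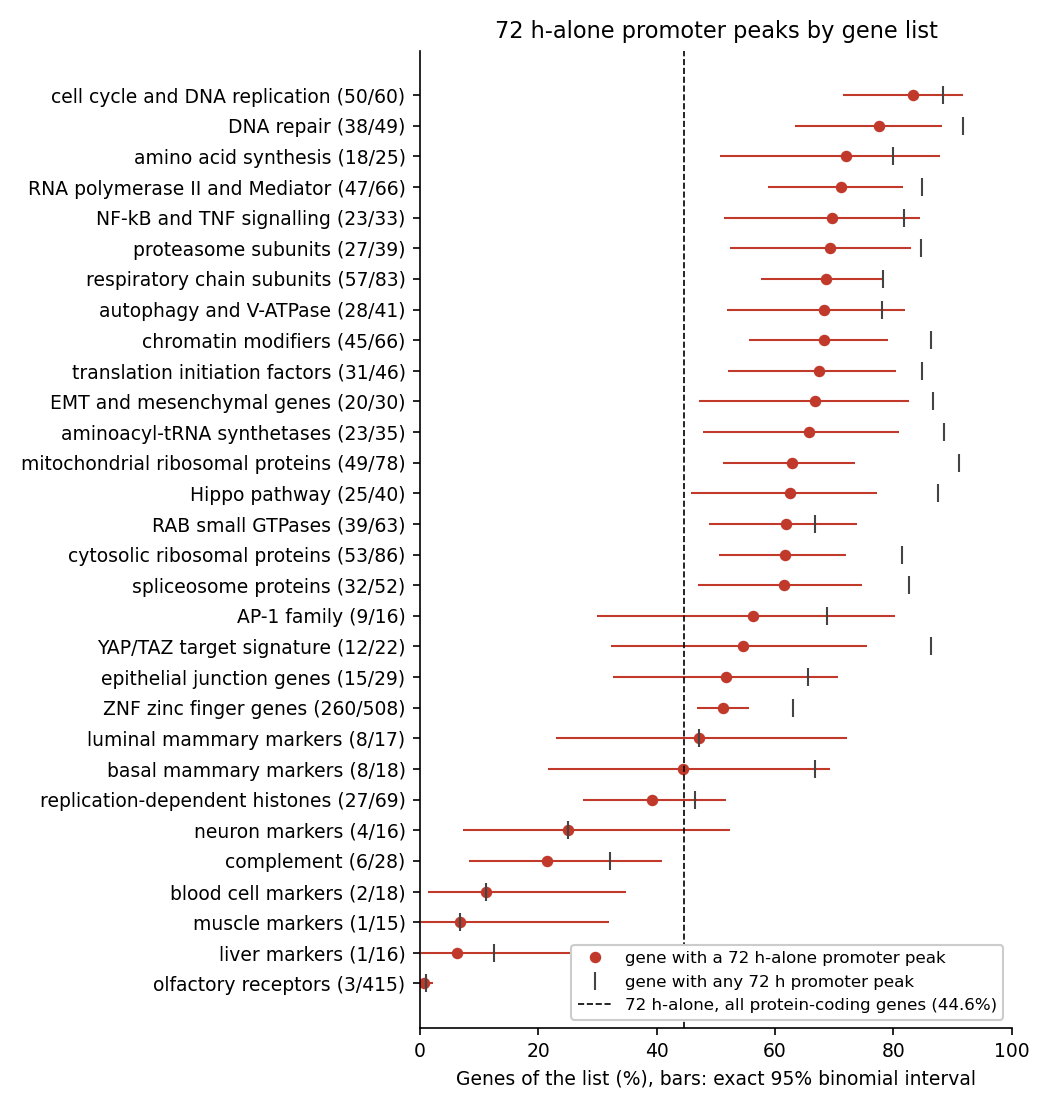
Share of each gene list (%) with a 72 h-alone promoter peak (points, exact 95% binomial interval) and with any 72 h promoter peak (ticks), and the 44.6% of all protein-coding genes as a dashed line. Cell cycle genes lie highest at 83.3% and olfactory receptors lowest at 0.723%, with the YAP/TAZ target signature at 54.5% near the line.

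Many of these genes had an earlier TAZ peak within 100 kb, at the promoter or farther away. A 24 h or 48 h peak within 100 kb of a TSS was found for 5835 of the 8897 genes (65.6%, 64.6 to 66.6), beside 57.9% of all protein-coding genes. The share was 46.9% (45.9 to 47.9) for genes with no 72 h promoter peak and 76.1% (74.1 to 78.1) for genes with a shared 72 h promoter peak alone. At 24 h taken alone the shares were 25.6%, 15.7% and 33.2%. Peaks within 1 kb of a TSS count here too, and 110 of the 8897 genes had one at 24 h and 419 at 48 h. Genes whose shared 72 h promoter peak overlapped a 24 h or 48 h peak enter the 76.1% through that overlap. Genes with many TSSs and dense neighbourhoods have more chances of a peak within 100 kb, and the part of this in the shares was not tested. The most 24 h peaks lay around DDAH1, an enzyme that breaks down methylarginines, with 7 at 24 h and 18 at 48 h and a 72 h-alone promoter peak of 4.19 fold. NSUN6, an RNA methyltransferase, had 7 and 8 with 10.4 fold, PALM2AKAP2 5 and 11 with 4.63 fold, TTC7A 5 and 10 with 16.7 fold, and IGF2BP2, an RNA-binding protein, 5 and 9 with 4.86 fold.

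The promoters were spread over all chromosomes. The share of protein-coding genes with a 72 h-alone peak lay between 39.3% and 50.8% on all chromosomes but 21, at 33.2% (27.0 to 39.8), and X, at 25.3% (22.4 to 28.3). Chromosome 2 had the highest share, 50.8%, and chromosome 11 had 39.3%.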

How the data were processed

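Dox-inducible TAZ-4SA MCF10A cells were profiled by TAZ ChIP-seq in 4 conditions, no Dox and 24, 48 or 72 h of Dox, with 1 TAZ and 1 IgG library each. Per the methods and the submitters' notes, the authors trimmed reads for quality, mapped them to hg38 with BWA and called peaks (MACS2, false discovery rate 0.01). No source used here gives their versions or says whether IgG served as control. The deposited lists, 1 per condition, give fold enrichment as a ratio over local background with a pseudocount of 1, and −log10 of the p-value and q-value, both computed by the authors. The lists hold no columns of other comparisons.

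Total reads are not in the lists, so summit fragments and background were solved from fold enrichment and Poisson p-value together, which returned 100% of p-values within 0.003 on the −log10 scale, and the solver was tested on simulated peaks. The lowest background per list ran from 1.42 fragments (24 h) to 2.84 (48 h), with 1.49 (no Dox) and 2.01 (72 h) between. It was taken as a stand-in for depth, which could not be checked. Summits were annotated with GENCODE version 44 using Python 3.11.15, pandas 2.3.3, scipy 1.17.1 and pysam 0.24.0, the last for hg38 sequence. Coordinates are 1-based.

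The 13 motifs and 30 gene lists were written from general knowledge, and the peaks, lists and motifs were all chosen with earlier results of these data known. The spaced element and the split by canonical TSS were added after the data were seen. A peak is named by the nearest protein-coding TSS. Named are the 20 strongest and 5 weakest peaks, the 4 strongest genes of a list or fewer, any Hippo, AP-1 or YAP/TAZ signature gene, the 5 widest, those nearest the 1 kb limit, the 5 with most TEAD letters, strong ones with each motif, the strongest with genes on both strands, and the 5 genes with most 24 h peaks within 100 kb. With 1 library per condition no test was run, and intervals cover counting error only. They treat peaks and genes as independent, though a peak near several genes counts for each of them.

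Alternatives were promoter windows of 500 bp and 3 kb, protein-coding transcripts or canonical TSSs alone, stricter and looser overlap, a −log10 q of at least 5, shorter sequence windows and the median background. Peaks on chromosome Y and unplaced sequences, 60 at 72 h, stayed out of the annotation.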

Additional observations from a re-analysis of the deposited data

Results flagged for a closer look

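The 72 h list held 60 peaks outside chromosomes 1 to 22 and X (0.155% of 38667), which the comparisons above did not use. Of these, 39 overlapped no peak of another list. They were singled out because they are calls in data outside the main measurement. Their position relative to genes was not analysed here.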

How the results depend on the processing

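The number of 72 h-alone promoter peaks, 8686, stayed within 1.5 times under the 7 alternatives tried, from 6961 to 10645. Of 58 alternative values 28 stayed within the interval of the reported value or, for counts, within 1.5 times, and 30 did not. With promoters of 500 bp, 41.1% of genes had such a peak, GC content was 68.2%, and the TEAD and ETS shares were 11.1% and 14.1%. With 3 kb these were 49.4%, 65.7%, 17.6% and 10.9%. With the TSSs of protein-coding transcripts only they were 42.3%, 68.7%, 11.5% and 13.8%. With canonical TSSs only they were 39.2%, 69.2%, 9.57% and 15.0%, and 64.2% of the genes had a 24 h or 48 h peak within 100 kb. When an overlap counted only from 0.5 of the 72 h interval, the genes were 49.3%, the median fold enrichment 6.11, the TEAD share 14.9% and the genes with an earlier peak within 100 kb 67.0%. With a −log10 q of at least 5, 41.4% of genes had a peak and the median fold enrichment was 6.14. Within 50 bp of the summit the GC content was 68.3%, the TEAD share 8.52%, the ETS share 7.86% and the share with ACTACA 5.36% in place of 8.12%. With the median background of promoter peaks, 94.1% of the peaks could have been called without Dox, 87.5% at 24 h and 98.8% at 48 h. The wider window, the canonical TSS and the shorter window moved the TEAD share most. Excluding peaks within 1 kb of another list's peak kept every value within its interval. No paired analysis was possible because each condition has 1 library. Depth limits the absence of a call for weak peaks most.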
